A study of Homo sapiens with 24 samples.

Results

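The E2F factors and the pocket proteins that bind them were described here over the 8 groups of an RNA sequencing study in ovarian cancer cells. The set was picked out by gene name and identifier, with no cutoff on a measured value but with earlier results of these data known, and held 10 of the 63299 genes of the deposited count table: the E2F genes E2F1, E2F2, E2F3, E2F4, E2F7 and E2F8, the dimerisation partner TFDP1, and the pocket protein genes RB1, RBL1 and RBL2. Each group had 3 libraries, 24 in all, of total RNA from A2780, a platinum-sensitive human ovarian cancer cell line, or A2780cis, its platinum-resistant derivative. The cells were left untreated in their usual medium or were given 1 μM 5-FdU-ECyd, a duplex prodrug that joins the antimetabolites 2'-deoxy-5-fluorouridine and 3'-C-ethynylcytidine, and were taken after 6 h or 12 h, so that each treated group had its own untreated group. The resistant line was kept in culture with intermittent cisplatin, and cells of every group were grown in flasks, with more cells seeded for A2780cis. The medium was replaced at the start of the 6 h or 12 h, with or without the prodrug, so untreated cells had fresh medium too. Platinum resistance was represented by 1 pair of lines, so that resistance and any other difference between these 2 lines cannot be told apart. The study calls the libraries of a group biological replicates, the labels do not say whether they came from separate cultures, and the p-values below measure the spread between these libraries.

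Libraries held between 11077368 and 21901406 counted reads, and no library repeated another. Of the markers that define epithelial and ovarian carcinoma cells, KRT18 was read at a median of 11.9 CPM (read counts scaled to the size of the library), KRT8 at 2.78 and EPCAM at 0.597, KRT7 was at 0 in all 24 libraries, and KRT19, PAX8, WT1, MUC16 and CDH1 were at 0 in 17 to 22 of them. Of the mesenchymal markers, VIM had a median of 1966 CPM, ZEB1 of 54.1, CDH2 of 10.4 and FN1 of 2.39. Leukocyte and endothelial markers reached at most 3 counts in any library and HBB none, whereas COL1A1 and DCN, which fibroblasts make, had medians of 3.25 and 3.30 CPM.

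E2F factors switch on the genes that a cell needs to enter and pass through DNA synthesis. Most of them bind DNA as a dimer with a DP protein such as TFDP1, and the pocket proteins RB1, RBL1 and RBL2 sit on the activation part of the E2F and keep it silent until cyclin-dependent kinases phosphorylate them. E2F1, E2F2 and E2F3 are known as activators that pair with RB1, E2F4 pairs with RBL1 and RBL2 and carries the repressive DREAM complex, and E2F7 and E2F8 are atypical members that bind without a DP partner and repress E2F targets. Several of these genes are themselves E2F targets, and E2F7 is also a known target of p53, the factor whose pathway DNA damage switches on.

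The sites through which this self-regulation is thought to run could be read in the promoters. Promoters were taken from RefSeq (GRCh38.p14) as 250 bases before and 50 bases after each transcription start, and were available for 9 of the 10 genes. They were searched on either strand for TTTCCCGC, TTTGGCGC, TTTCGCGC and TTTGCCGC, which are forms of the E2F site. At least 1 of these letters stood in the promoters of 5 of the 9 genes, E2F1, E2F2, E2F3, RBL1 and TFDP1, and in 3.31% of all 35116 promoters of the table or 3.99% of its 27305 genes. The stretches are printed 5′ to 3′ on the strand of the gene, each upstream of the start, with the matching letters in capitals.
E2F1, chr20:33686386-33686430, minus strand: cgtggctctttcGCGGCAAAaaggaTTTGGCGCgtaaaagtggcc
E2F2, chr1:23531256-23531287, minus strand: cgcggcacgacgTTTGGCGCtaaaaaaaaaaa
E2F3, chr6:20401814-20401845, plus strand: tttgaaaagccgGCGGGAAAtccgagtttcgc
RBL1, chr20:37095998-37096035, minus strand: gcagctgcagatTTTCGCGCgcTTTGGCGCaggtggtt
TFDP1, chr13:113584621-113584652, plus strand: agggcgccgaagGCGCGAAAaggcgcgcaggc
E2F1 and RBL1 held 2 matches each within their last 45 and 38 bases before the start, and the other 3 genes held 1. E2F4, E2F7 and RBL2 held no match in these windows. The promoter listed for RB1 starts inside the gene and says nothing of its main start, and E2F8 had no entry. A match is a description of the letters and was not tested for binding.

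E2F7 is shown as well because it moved most on treatment in A2780. Its 250 bases before the start (chr12:77065570-77065819, minus strand) read as follows, with 4 copies of the CCAAT box, written ATTGG because it lies on the opposite strand, in capitals.
E2F7: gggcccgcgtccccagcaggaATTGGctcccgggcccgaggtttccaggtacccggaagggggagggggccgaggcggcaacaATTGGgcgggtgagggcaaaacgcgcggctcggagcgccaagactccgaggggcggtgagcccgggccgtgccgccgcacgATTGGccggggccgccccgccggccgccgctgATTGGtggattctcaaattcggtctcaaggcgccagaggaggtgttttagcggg
CCAAT was found on either strand in 34.6% of all promoters of the table, and in those of E2F1, E2F3 and RBL2 among the other members.

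All 10 genes were read in every library, with counts from 142 for RB1 to 4373 for TFDP1, and all passed the filter on low counts. Divided by the length of their exons (2690 bases for E2F1 to 8110 bases for RBL2), so that genes can be compared with each other, the levels in untreated A2780 cells of 6 h ran from TFDP1 at 50.6 ± 2.78 CPM per kilobase (mean ± SD, n = 3) through E2F4 at 24.3 ± 4.44 and E2F3 at 12.1 ± 0.109 down to E2F2 at 4.12 ± 0.468. Between them, on the same scale per length, came E2F1 at 8.54 ± 0.823, E2F7 at 7.71 ± 0.104, RBL2 at 7.06 ± 0.500, E2F8 at 6.5 ± 0.109, RB1 at 6.38 ± 0.448 and RBL1 at 5.47 ± 0.442. The libraries of E2F1 and E2F7, of RBL2 and E2F8, and of E2F8 and RB1 overlapped, so that these neighbours did not differ beyond their spread. The order was another one in treated A2780cis cells of 12 h. There E2F1 led at 29.9 ± 1.89 CPM per kilobase, followed by E2F4 at 20 ± 1.14 and TFDP1 at 15.9 ± 0.947, and the 2 pocket genes RBL1 at 2.44 ± 0.41 and RB1 at 1.89 ± 0.537 stood last and overlapped each other. In untreated A2780cis cells of 12 h E2F4 and TFDP1 shared the first place, at 31.8 ± 1.96 and 31.6 ± 1.6 CPM per kilobase with overlapping libraries.

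**Figure D1:**
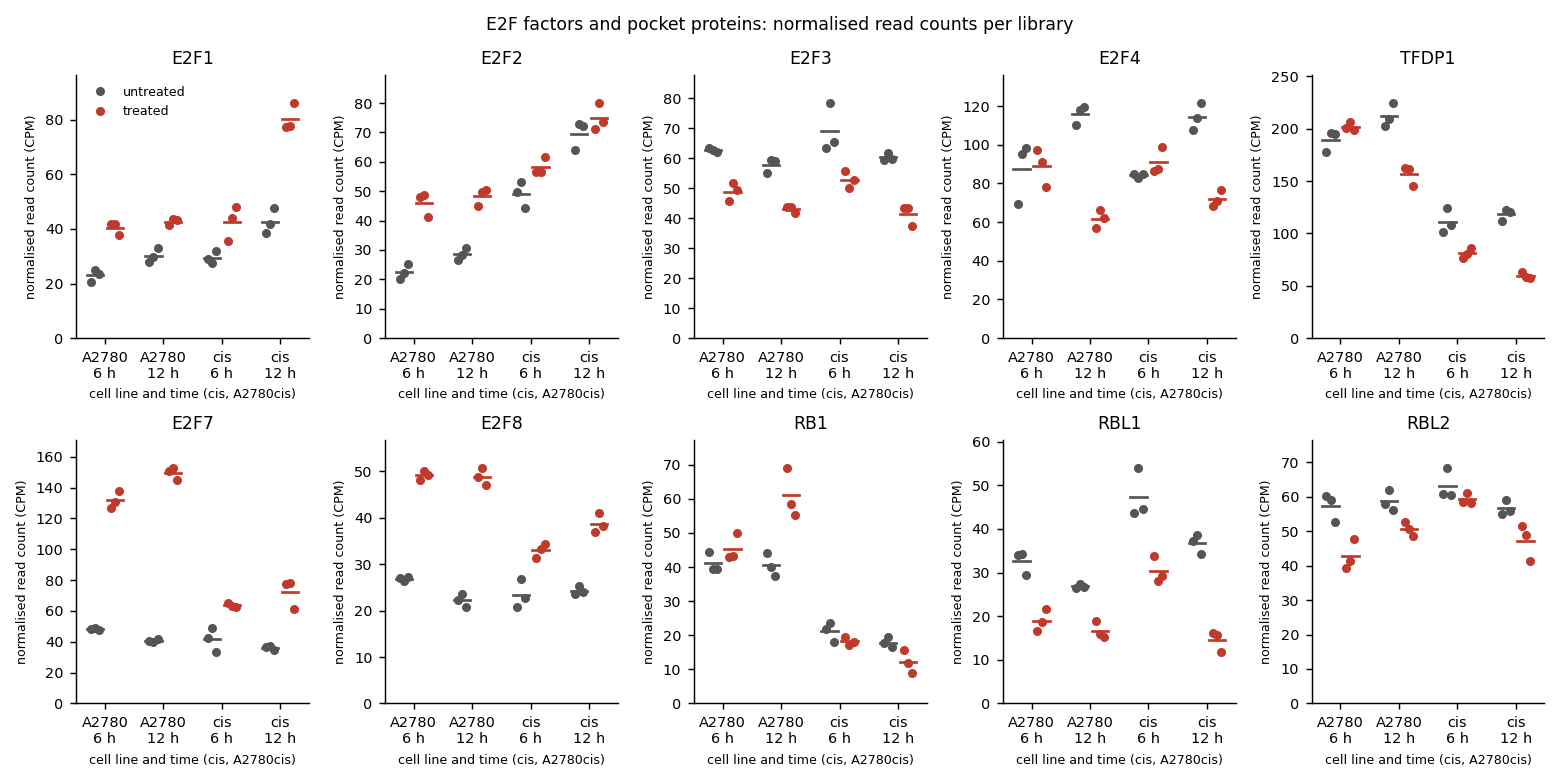
Normalised read counts (CPM, vertical axes starting at 0) of the 10 genes in the 24 libraries, by cell line and time, with untreated cells in grey and treated cells in red; each point is 1 library and each bar the mean of 3. E2F7 rises on treatment from between 39.9 and 49.2 to between 127 and 153 CPM in A2780, while RBL1 and E2F3 fall in each line at each time.

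Each treated group was set against the untreated group of its own line and time to ask which parts of the network the prodrug moves. The paper describes 3'-C-ethynylcytidine, a part of the prodrug, as an inhibitor of RNA polymerase. CPM are shares of the counted reads, so a rise or fall is relative to the other transcripts of a library. A change in the amount of RNA per cell was not tested. Values below are TMM-normalised CPM, log2 fold changes (log2 FC) are treated against untreated and are given ± SE, and adjusted p-values come from edgeR's quasi-likelihood test fitted to all 20240 tested genes, with at most 0.05 as the threshold. In A2780 at 6 h, 7 of the 10 genes passed it, 4 higher and 3 lower, beside 29.4% of all tested genes (16% higher, 13.4% lower). At 12 h 9 passed, 5 higher and 4 lower, beside 54.8% (28.6% higher, 26.1% lower). The A2780cis cells gave 6 at 6 h, 3 in each direction, beside 30.7% (14.4% higher, 16.3% lower), and 9 at 12 h, 3 higher and 6 lower, beside 59.9% (31% higher, 28.9% lower). Groups without any overlap of their libraries were common too, with 41.6% and 64% of all tested genes at 6 h and 12 h in A2780 and 43.2% and 59.6% in A2780cis. With so many genes of the whole table called, the counts at 12 h show little, and the size and direction of each gene carry the description. The median log2 FC of the 10 genes was 0.12 and 0.14 at 6 h and 12 h in A2780 and 0.01 and -0.40 in A2780cis, beside 0.04, 0.02, 0.00 and 0.04 over all tested genes. In RNA from whole cultures, fewer cells in a phase of the cell cycle and less RNA per cell cannot be told apart.

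Among the activators, E2F1 and E2F2 rose and E2F3 fell in A2780. E2F1, which drives S phase genes and at high activity also cell death genes, stood at 20.6, 25 and 23.4 CPM in untreated A2780 cells of 6 h and at 41.8, 41.9 and 37.9 in treated ones. At 12 h it had 28.1, 29.7 and 32.9 CPM untreated and 41.3, 43.5 and 43.4 treated. Treated libraries lay above untreated ones at each time without overlap, and the log2 FC was 0.82 ± 0.11 (adjusted p = 6.81e-06) at 6 h and 0.50 ± 0.11 (adjusted p = 0.00039) at 12 h. In A2780cis, E2F1 went from 28.8, 27.4 and 31.8 CPM to 35.7, 44 and 48.2 at 6 h. At 12 h it went from 38.6, 42 and 47.5 to 77.2, 77.6 and 86.2 CPM, the highest values of this gene in the study. The log2 FC in this line was 0.54 ± 0.11 (adjusted p = 0.000615) and 0.91 ± 0.11 (adjusted p = 6.27e-08), again with no overlap.

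E2F2, an activator close to E2F1 in structure, rose in A2780 and did not pass the test in A2780cis. In A2780 it went from 20.1, 22.2 and 25.2 CPM to 47.9, 48.9 and 41.3 at 6 h. It went from 26.7, 28.4 and 30.6 to 45.1, 49.7 and 50.4 CPM at 12 h. These are log2 FCs of 1.03 ± 0.10 (adjusted p = 5.23e-08) and 0.76 ± 0.10 (adjusted p = 4.51e-07). In A2780cis the untreated libraries already held 49.6, 53.2 and 44.4 CPM at 6 h and 64.1, 72.8 and 72.1 at 12 h, within or above the range of treated A2780 cells at 6 h and above all of these at 12 h. Treated A2780cis cells had 56.7, 56.6 and 61.5 and 71.1, 80.1 and 73.6 CPM, with a log2 FC of 0.25 (95% interval 0.05 to 0.45, adjusted p = 0.0576) and 0.11 (95% interval -0.09 to 0.30, adjusted p = 0.35). The libraries of 6 h did not overlap although the test was missed, and those of 12 h overlapped. Without the second untreated A2780cis library of 6 h the 6 h value passed the threshold (0.31, adjusted p = 0.043), as it did with library size alone (0.35, adjusted p = 0.0257), with the compared samples alone (0.29, adjusted p = 0.0461) and with the replicate number as a block (0.25, adjusted p = 0.0461).

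E2F3, which is required for S phase entry in many cell types, moved the other way. In A2780 it fell from 63.3, 62.9 and 62.2 CPM to 45.6, 51.6 and 49.4 at 6 h and from 55, 59.3 and 59.1 to 43.7, 43.9 and 41.9 at 12 h. In A2780cis it fell from 63.4, 78.5 and 65.4 to 55.8, 50.1 and 52.8 CPM and from 59.4, 61.9 and 59.7 to 43.3, 43.6 and 37.3. Treated libraries lay below untreated ones in all 4 comparisons. Its log2 FC was -0.36 ± 0.09 (adjusted p = 0.00342) and -0.42 ± 0.09 (adjusted p = 0.000226) in A2780 and -0.39 ± 0.09 (adjusted p = 0.00167) and -0.54 ± 0.09 (adjusted p = 8.26e-06) in A2780cis. Scaled by library size alone, the 12 h value in A2780 shrank to -0.20 and missed the threshold (adjusted p = 0.0672).

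E2F4 and TFDP1, which can form a repressive dimer, both fell at 12 h. E2F4 did not pass the test at 6 h: untreated A2780 libraries had 69.1, 95.2 and 98.1 CPM and treated ones 97.4, 91.3 and 77.9, a log2 FC of 0.02 (95% interval -0.20 to 0.25, adjusted p = 0.892). At 12 h it had 110.1, 118 and 119 CPM untreated and 56.8, 66.2 and 62 treated, a log2 FC of -0.91 ± 0.11 (adjusted p = 8.14e-08). A2780cis showed the same course, with 84.7, 82.9 and 85.1 against 86.4, 87.3 and 98.8 CPM at 6 h and 108, 114 and 122 against 68.5, 71 and 76.5 at 12 h. There the log2 FC was 0.11 (95% interval -0.11 to 0.33, adjusted p = 0.468) and -0.67 ± 0.11 (adjusted p = 6.44e-06). The untreated A2780 libraries of 6 h overlapped the treated ones, with the first of them lowest, and the groups of 12 h lay far apart in each line. In A2780cis the groups of 6 h did not overlap, although the test was missed.

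TFDP1, the DP partner, fell in A2780 at 12 h and in A2780cis at each time. In A2780 it went from 177, 196 and 195 CPM to 201, 207 and 198 at 6 h, a log2 FC of 0.09 (95% interval -0.08 to 0.26, adjusted p = 0.429). It fell from 202, 209 and 225 to 162, 162 and 145 CPM at 12 h, a log2 FC of -0.44 ± 0.08 (adjusted p = 7.39e-05). In A2780cis it was lower already at 6 h, with 101, 124 and 108 CPM untreated and 76.9, 80.8 and 85.8 treated, and at 12 h it had 111, 123 and 121 untreated and 63.6, 58.1 and 57 treated. On the log2 scale the change was -0.45 ± 0.09 (adjusted p = 0.000237) and -0.99 ± 0.09 (adjusted p = 3.05e-10). Treated and untreated groups overlapped in neither line at either time, although the 6 h value of A2780 missed the test.

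The atypical repressors E2F7 and E2F8 rose in each line at each time. E2F7 had 48.3, 49.2 and 47.9 CPM in untreated A2780 cells of 6 h and 127, 130.4 and 138 after treatment. At 12 h it had 40.2, 39.9 and 42.1 CPM untreated and 151, 153 and 145 treated, the largest change of any of the 10 genes. The log2 FC was 1.44 ± 0.10 (adjusted p = 2.06e-10) at 6 h and 1.88 ± 0.10 (adjusted p = 1.02e-13) at 12 h. In A2780cis E2F7 went from 42.2, 48.9 and 33.5 to 65.4, 63.3 and 62.4 CPM at 6 h and from 36.6, 37.2 and 34.6 to 77.4, 78.4 and 61 at 12 h. Its log2 FC there was 0.62 ± 0.10 (adjusted p = 6.74e-05) and 1.00 ± 0.10 (adjusted p = 6.49e-09), and every treated A2780 library lay above every treated A2780cis library.

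E2F8, the close relative of E2F7, rose as well. It went from 27, 26.4 and 27.3 to 48.1, 50.2 and 49.2 CPM at 6 h and from 22.3, 23.6 and 20.8 to 48.7, 50.7 and 47 at 12 h in A2780. In A2780cis it went from 20.8, 26.8 and 22.7 to 31.3, 33.4 and 34.3 CPM and from 23.6, 25.2 and 24 to 37, 41.1 and 38.1. No groups overlapped. E2F8 had a log2 FC of 0.87 ± 0.09 (adjusted p = 1.45e-07) and 1.13 ± 0.09 (adjusted p = 1.45e-10) in A2780 and 0.50 ± 0.09 (adjusted p = 0.000285) and 0.68 ± 0.09 (adjusted p = 6.21e-07) in A2780cis.

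The 3 pocket protein genes each behaved in their own way. RB1, the retinoblastoma tumour suppressor, went in opposite directions in the 2 lines at 12 h. In A2780 it had 44.4, 39.5 and 39.3 CPM untreated and 42.8, 43.2 and 49.8 treated at 6 h, with overlapping libraries and a log2 FC of 0.14 (95% interval -0.14 to 0.43, adjusted p = 0.472). At 12 h it rose from 44.1, 39.9 and 37.5 to 69, 58.5 and 55.4 CPM, a log2 FC of 0.59 ± 0.14 (adjusted p = 0.000645). In A2780cis it had 21.9, 23.6 and 18.2 against 19.5, 17.2 and 18 CPM at 6 h, again overlapping, with a log2 FC of -0.22 (95% interval -0.52 to 0.09, adjusted p = 0.292). At 12 h it fell from 17.7, 19.4 and 16.5 to 15.8, 11.9 and 8.85 CPM, a log2 FC of -0.55 ± 0.15 (adjusted p = 0.00225), and the third treated library was the lowest of the study for this gene.

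RBL1, the pocket protein that rises in cycling cells, fell throughout. It went from 34, 34.3 and 29.6 to 16.7, 18.6 and 21.6 CPM at 6 h and from 26.5, 27.3 and 26.7 to 18.8, 15.8 and 15.3 at 12 h in A2780. A2780cis cells started higher and ended in the same range at 12 h, with 43.7, 53.9 and 44.6 against 33.7, 28 and 29.3 CPM at 6 h and 37.3, 38.7 and 34.2 against 16.1, 15.7 and 11.7 at 12 h. The groups did not overlap in any of these comparisons. The log2 FC was -0.78 ± 0.13 (adjusted p = 6.16e-05) and -0.69 ± 0.13 (adjusted p = 4.51e-05) in A2780 and -0.64 ± 0.12 (adjusted p = 0.000276) and -1.34 ± 0.13 (adjusted p = 1.6e-09) in A2780cis.

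RBL2, the pocket protein of resting cells, had a log2 FC below 0 in each line at each time, of at most 0.42 in size. Its treated and untreated libraries overlapped only in A2780cis at 6 h. In A2780 it had 60.2, 58.9 and 52.7 CPM untreated and 39.3, 41.4 and 47.8 treated at 6 h, and 57.8, 61.9 and 56.2 and 52.5, 50.6 and 48.7 at 12 h. In A2780cis it had 60.7, 68.3 and 60.6 and 58.4, 61 and 58.2 CPM at 6 h and 54.9, 58.9 and 56 and 51.4, 48.8 and 41.5 at 12 h. The changes came to a log2 FC of -0.42 ± 0.09 (adjusted p = 0.00157) and -0.21 ± 0.09 (adjusted p = 0.0517) in A2780 and -0.09 ± 0.09 (adjusted p = 0.481) and -0.26 ± 0.09 (adjusted p = 0.0166) in A2780cis. RBL2 fell in A2780 at 6 h and in A2780cis at 12 h, and each 12 h value sat near the threshold. The A2780 value of 12 h passed it without the third untreated library (-0.25, adjusted p = 0.0489) or the first treated one (-0.25, adjusted p = 0.0429), with the compared samples alone (-0.20, adjusted p = 0.0336) and with the replicate number as a block (-0.21, adjusted p = 0.0461), and it came to 0.00904 with library size alone (adjusted p = 0.944). The A2780cis value missed it without the second untreated library (-0.24, adjusted p = 0.0585) or the third treated one (-0.20, adjusted p = 0.065), and also with library size alone (-0.15, adjusted p = 0.158) or with the compared samples alone (-0.27, adjusted p = 0.0728). Exons of AKTIP and of the unnamed gene ENSG00000279344 on the opposite strand share 609 and 721 bases with those of RBL2, 7.51% and 8.89% of its exon length, and since the strand setting of the counting was not stated, reads there cannot be assigned to one gene. For RBL1 the shared part was 213 bases (3.58%) and for E2F8 7 bases, each with a noncoding gene of hardly any counts.

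**Figure D2:**
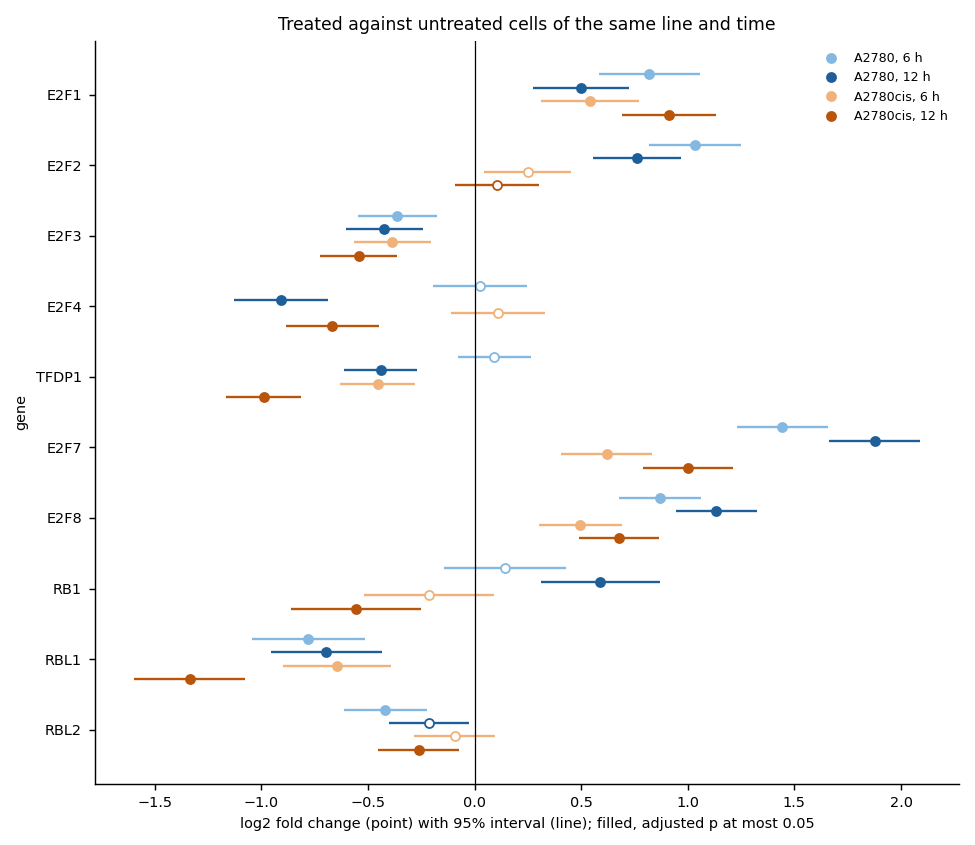
Log2 fold changes of treated against untreated cells, within line and time (horizontal axis) for the 10 genes, with 95% intervals as lines; filled points have an adjusted p of at most 0.05. E2F7 and E2F8 lie right of 0 and E2F3 and RBL1 left of 0 in all 4 comparisons, E2F4 passed at 12 h but not at 6 h, and the 12 h points of RB1 lie on opposite sides of 0.

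Whether a gene responded differently in the 2 lines was tested directly, as the log2 FC of A2780cis minus that of A2780. At 6 h, 3 of the 10 genes differed, all with the lower value in A2780cis, beside 3.07% of all tested genes (0.692% higher, 2.38% lower). They were E2F7 at -0.82 ± 0.15 (adjusted p = 0.00178), E2F2 at -0.78 ± 0.14 (adjusted p = 0.00237) and TFDP1 at -0.55 ± 0.12 (adjusted p = 0.00904). At 12 h, 7 of the 10 differed, 6 lower and 1 higher in A2780cis, beside 23.7% of all tested genes (9.7% higher, 14% lower). RB1 differed most, by -1.14 ± 0.20 (adjusted p = 0.00023), and was the gene that rose in one line and fell in the other. E2F7 differed by -0.88 ± 0.14 (adjusted p = 0.000107), E2F2 by -0.65 ± 0.14 (adjusted p = 0.00135), RBL1 by -0.64 ± 0.18 (adjusted p = 0.0106) and TFDP1 by -0.55 ± 0.12 (adjusted p = 0.00169). For E2F8 the difference was -0.46 ± 0.13 (adjusted p = 0.0123), and it missed the threshold with no filter on low counts (adjusted p = 0.0567). E2F1 was the only gene with the larger rise in A2780cis, by 0.41 ± 0.15 (adjusted p = 0.0499), and this call was the weakest: it was lost in 10 of the 12 fits that left out 1 of the 12 h libraries, where the adjusted p ranged up to 0.14, and held only without the third untreated or the second treated A2780cis library; it was also lost with the size factors of DESeq2, library size alone and no filter (adjusted p = 0.0555, 0.183 and 0.149). For E2F3, E2F4 and RBL2 no difference was shown at 12 h, with -0.12 (95% interval -0.38 to 0.13, adjusted p = 0.521), 0.24 (95% interval -0.07 to 0.55, adjusted p = 0.26) and -0.05 (95% interval -0.32 to 0.22, adjusted p = 0.838). These intervals leave room for differences of up to 0.55 in size, so that the lines are not shown to act alike. At 6 h the 7 genes that missed the threshold had differences from -0.37 for E2F8 (95% interval -0.65 to -0.10, adjusted p = 0.135) to 0.33 for RBL2 (95% interval 0.05 to 0.60, adjusted p = 0.205). The interval of RB1 reached -0.77, so the lines are not shown to act alike at 6 h either.

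**Figure D3:**
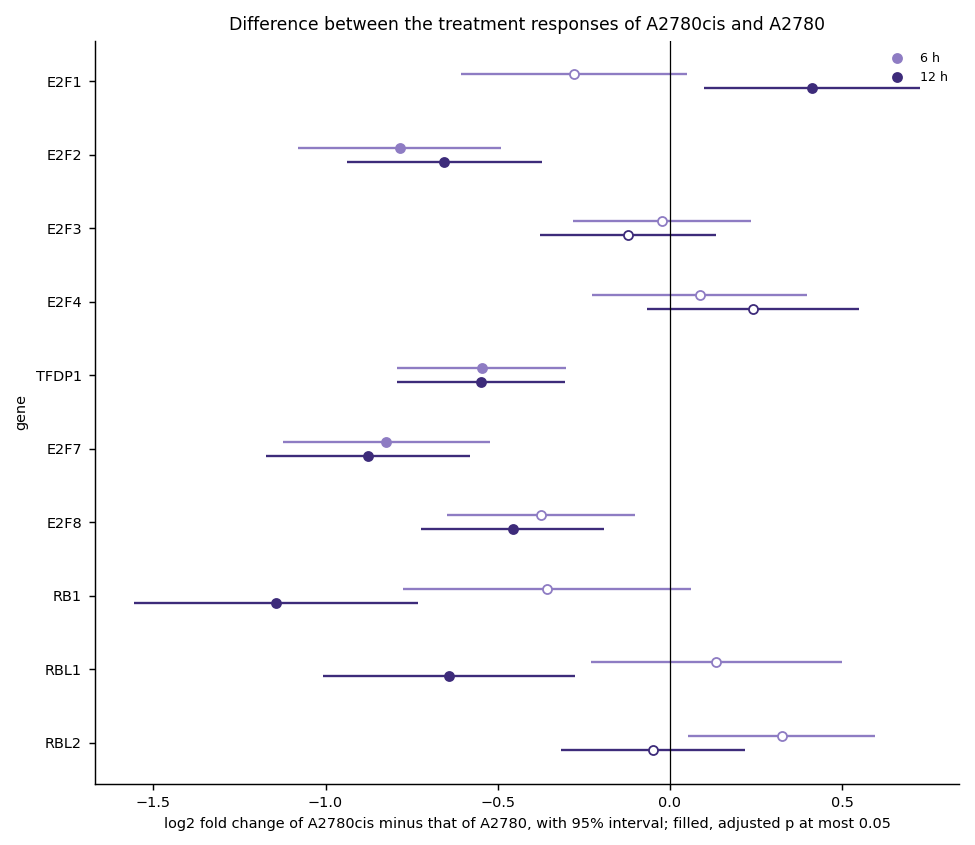
Difference between the log2 fold changes on treatment of A2780cis and A2780 (horizontal axis, A2780cis minus A2780) at 6 h and 12 h, with 95% intervals as lines; filled points have an adjusted p of at most 0.05. Filled points lie left of 0 for E2F2, E2F7 and TFDP1 at each time and for E2F8, RB1 and RBL1 at 12 h. The filled point of E2F1 at 12 h lies right of 0.

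The growth of the response from 6 h to 12 h was tested in the same way within each line. In A2780, 3 genes passed the threshold, 1 higher and 2 lower, beside 23.7% of all tested genes (10.7% higher, 13% lower; with library size alone 69.7% in place of 45.1% of the calls were higher), and in A2780cis 3 genes, all lower, beside 24% of them (10.3% higher, 13.6% lower). E2F4 moved down between the times in each line, by -0.93 ± 0.15 (adjusted p = 0.000106) in A2780 and -0.78 ± 0.15 (adjusted p = 0.000607) in A2780cis. TFDP1 did so as well, by -0.53 ± 0.12 (adjusted p = 0.00195) and -0.54 ± 0.12 (adjusted p = 0.00225). RBL1 deepened its fall in A2780cis, by -0.69 ± 0.18 (adjusted p = 0.00576), and in A2780 its growth was 0.09 (95% interval -0.28 to 0.45, adjusted p = 0.78). E2F7 rose further in A2780, by 0.43 ± 0.14 (adjusted p = 0.0299), but 7 of the 12 fits without 1 library gave an adjusted p over 0.05, up to 0.0756, and with no filter on low counts it was 0.0943 (log2 FC 0.40). The call held without the third untreated or the third treated library of 6 h, the first or the third untreated library of 12 h or the third treated one. In A2780cis its growth was 0.38 (95% interval 0.08 to 0.68, adjusted p = 0.0588), and it passed the threshold without the third untreated library of 6 h (0.51, adjusted p = 0.00921) or the third treated library of 12 h (0.42, adjusted p = 0.0249), and by the DESeq2 Wald test (0.38, adjusted p = 0.0413). The growth of E2F1 in A2780cis was 0.37 (95% interval 0.05 to 0.69, adjusted p = 0.0829) and passed without the third treated library of 6 h (0.46, adjusted p = 0.0415) and with the replicate number as a block (0.38, adjusted p = 0.0433). That of RB1 in A2780cis was -0.34 (95% interval -0.77 to 0.09, adjusted p = 0.255) and reached -0.64 (adjusted p = 0.0177) without the first treated library of 12 h. In A2780 the change of RB1 between the times was 0.45 (95% interval 0.05 to 0.85, adjusted p = 0.0965), and it passed with library size alone (0.60, adjusted p = 0.0285) or the compared samples alone (0.46, adjusted p = 0.0239). With library size alone those of E2F8 (0.42, adjusted p = 0.0335) and RBL2 (0.36, adjusted p = 0.0497) passed there as well.

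The untreated cells of the 2 lines were compared to ask how the network stood before treatment. These are the same untreated libraries as in the treatment comparisons, so the values are not independent of those above. At each time 5 of the 10 genes passed the threshold, 3 higher and 2 lower in A2780cis, beside 47.9% of all tested genes at 6 h (25% higher, 22.9% lower) and 52.9% at 12 h (25.4% higher, 27.5% lower). The same 5 genes passed at each time. E2F2 had the largest difference, with 49.1 ± 4.44 CPM in A2780cis against 22.5 ± 2.56 in A2780 (mean ± SD, n = 3) at 6 h and 69.6 ± 4.85 against 28.6 ± 1.93 at 12 h. The log2 FC of A2780cis against A2780 was 1.13 ± 0.10 (adjusted p = 8.79e-10) and 1.28 ± 0.10 (adjusted p = 2.08e-11). RBL1 had 47.4 ± 5.67 against 32.6 ± 2.63 and 36.7 ± 2.31 against 26.8 ± 0.426 CPM, a log2 FC of 0.54 ± 0.12 (adjusted p = 0.000704) and 0.45 ± 0.12 (adjusted p = 0.00286). E2F1 was higher by 0.36 ± 0.12 (adjusted p = 0.0126) and 0.50 ± 0.11 (adjusted p = 0.000389). The 6 h call of E2F1 was lost without the first untreated A2780 library (0.28, adjusted p = 0.0833) or the third untreated A2780cis library (0.29, adjusted p = 0.07), and also with library size alone (0.26, adjusted p = 0.0855) or the compared samples alone (0.27, adjusted p = 0.101). E2F7 and E2F8 passed at 6 h, as lower in A2780cis, with the size factors of DESeq2 (-0.27, adjusted p = 0.0427, and -0.24, adjusted p = 0.0457), its Wald test (-0.26, adjusted p = 0.0451, and -0.24, adjusted p = 0.0437) and library size alone (-0.32, adjusted p = 0.0239, and -0.30, adjusted p = 0.0201).

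RB1 and TFDP1 were lower in A2780cis before any treatment. Untreated A2780cis cells held 21.2 ± 2.77 CPM of RB1 against 41 ± 2.88 in A2780 at 6 h and 17.9 ± 1.46 against 40.5 ± 3.33 at 12 h, a log2 FC of -0.96 ± 0.14 (adjusted p = 3.92e-06) and -1.18 ± 0.14 (adjusted p = 7.3e-08). TFDP1 stood at 111 ± 11.8 against 189 ± 10.4 and 118 ± 5.97 against 212 ± 11.4 CPM, a log2 FC of -0.77 ± 0.08 (adjusted p = 2.1e-08) and -0.84 ± 0.08 (adjusted p = 2.65e-09). For neither gene did the libraries of the lines overlap. The same held for 52% of all tested genes at 6 h and 62.3% at 12 h. Those lower in A2780cis without overlap made up 24.9% and 32.1% of all tested genes. RB1 (chr13:48303744-48599436, plus strand, GRCh38) and TFDP1 (chr13:113584721-113641473, plus strand) are the 2 members on chromosome 13. Most genes of this chromosome, looked at after these values were seen, were lower in A2780cis too. Of its 213 tested protein-coding genes, RB1 and TFDP1 among them, 162 were lower in A2780cis at 6 h (76.1%) and 170 at 12 h (79.8%). Over all 13895 tested protein-coding genes 24.1% and 28.8% were lower. The median log2 FC on chromosome 13 was -0.78 and -0.90, beside 0.05 and 0.01 over all tested protein-coding genes. Within 2 megabases of RB1, 16 of 19 such genes were lower at each time, and within the same distance of TFDP1 11 and 13 of 18. The part of the whole chromosome in the RB1 and TFDP1 values was not tested, and gene copy number was not measured here. E2F2, on chromosome 1, had 39 such neighbours with a median of 0.20 at 6 h and 0.04 at 12 h, far below its own difference. E2F1 and RBL1 both lie on chromosome 20, whose 371 tested protein-coding genes had a median of 0.20 and 0.19. Within 2 megabases of E2F1, 53 such genes had a median of 0.27 at 6 h and 0.24 at 12 h. The 50 such neighbours of RBL1 had a median of 0.19 at each time.

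**Figure D4:**
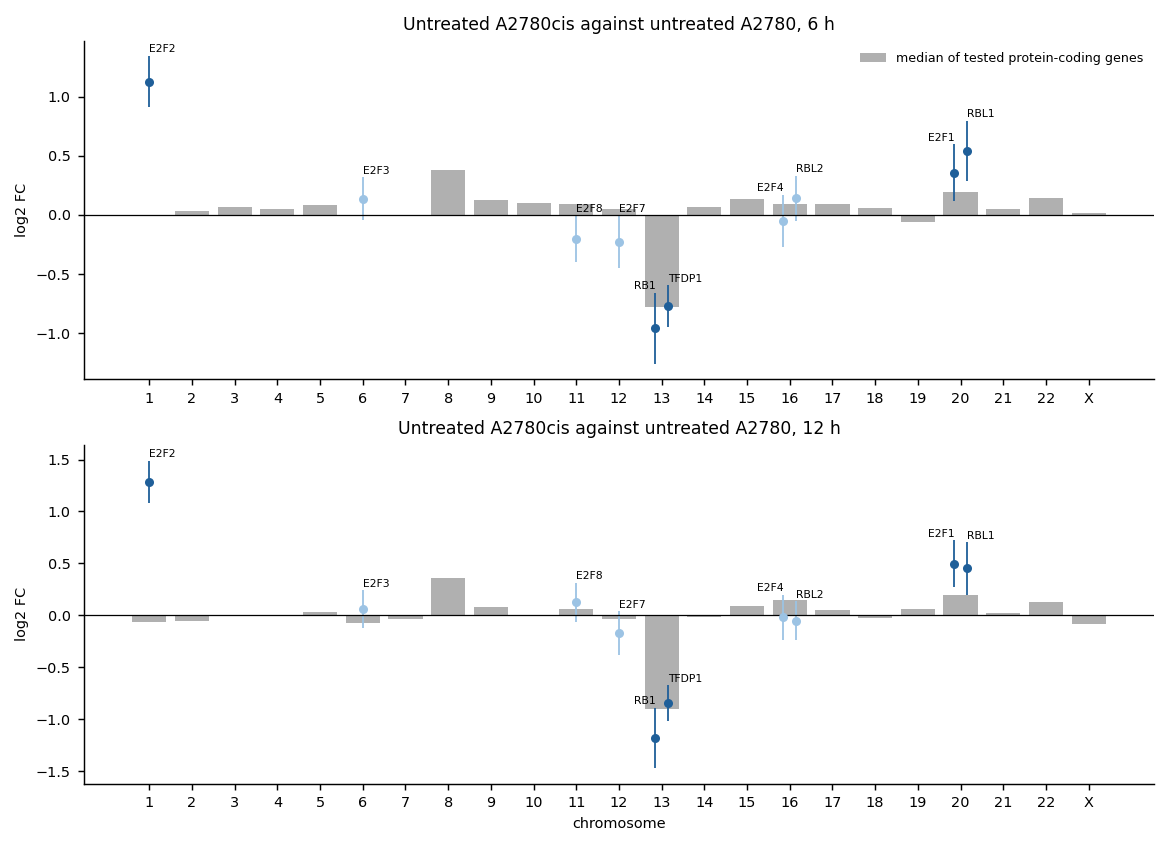
Log2 fold change of untreated A2780cis against untreated A2780 cells (vertical axes) at 6 h and 12 h by chromosome (horizontal axes), with the median of the tested protein-coding genes of each chromosome as grey bars and the 10 genes as points with 95% intervals; dark points have an adjusted p of at most 0.05. RB1 and TFDP1 lie beside the low bar of chromosome 13 and E2F2 lies far above the bar of chromosome 1.

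The other 5 genes, E2F3, E2F4, E2F7, E2F8 and RBL2, passed the threshold between the untreated lines at neither time. Their log2 FC ran from -0.23 for E2F7 to 0.14 for RBL2 at 6 h and from -0.17 for E2F7 to 0.12 for E2F8 at 12 h. E2F7 and E2F8 at 6 h depended on the scaling and on 1 library. With the size factors of DESeq2 they stood at -0.27 (adjusted p = 0.0427) and -0.24 (adjusted p = 0.0457), and without the second untreated A2780cis library at -0.36 (adjusted p = 0.00797) and -0.30 (adjusted p = 0.0147).

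Untreated cells also changed between 6 h and 12 h. In A2780, 4 of the 10 genes passed the threshold, 3 higher and 1 lower, beside 26.9% of all tested genes (16.6% higher, 10.3% lower). In A2780cis 4 passed, again 3 higher and 1 lower, beside 39.9% (18% higher, 21.9% lower). With library size alone 71.9% in place of 61.7% of all calls were higher in A2780 and 74.6% in place of 45.2% in A2780cis. E2F1, E2F2 and E2F4 rose with time in each line: E2F1 by 0.40 ± 0.11 (adjusted p = 0.013) in A2780 and 0.54 ± 0.11 (adjusted p = 0.000635) in A2780cis, E2F2 by 0.35 ± 0.10 (adjusted p = 0.0168) and 0.51 ± 0.10 (adjusted p = 0.00038), and E2F4 by 0.41 ± 0.11 (adjusted p = 0.0078) and 0.44 ± 0.11 (adjusted p = 0.0023). E2F8 fell in A2780 by 0.27 ± 0.09 (adjusted p = 0.0336) and RBL1 fell in A2780cis by 0.37 ± 0.12 (adjusted p = 0.0181). The A2780 calls rested on few libraries. None of the 4 was left without the first untreated library of 6 h, where E2F1 was at 0.32 (adjusted p = 0.1), E2F2 at 0.27 (adjusted p = 0.126), E2F4 at 0.26 (adjusted p = 0.0913) and E2F8 at -0.27 (adjusted p = 0.104), and only E2F4 was left without the third untreated library of 12 h, where E2F1 was at 0.33 (adjusted p = 0.0813), E2F2 at 0.29 (adjusted p = 0.0916) and E2F8 at -0.23 (adjusted p = 0.153). E2F8 also missed the threshold without the second or the third untreated library of 6 h or the first of 12 h (adjusted p from 0.0549 to 0.0702). RBL1 in A2780cis missed it without the second untreated library of 6 h (-0.27, adjusted p = 0.119) or the third of 12 h (-0.32, adjusted p = 0.0901). These calls of E2F8 and RBL1 were lost as well with library size alone, with no filter and with the compared samples alone. E2F3 in A2780cis passed without the first untreated library of 6 h (-0.25, adjusted p = 0.0472) and E2F7 without the third (-0.33, adjusted p = 0.0149). In A2780, E2F7 passed with the size factors of DESeq2 (-0.29, adjusted p = 0.0426), its Wald test (-0.28, adjusted p = 0.0289) and the compared samples alone (-0.25, adjusted p = 0.038), and RBL1 by the Wald test (-0.31, adjusted p = 0.0411). TFDP1 passed as higher with library size alone in A2780 (0.24, adjusted p = 0.0402) and A2780cis (0.26, adjusted p = 0.0214). Since E2F4 rose with time in untreated cells and fell in treated ones, its drop at 12 h is measured against a higher base: treated cells of 6 h and 12 h had 88.9 ± 9.95 and 61.7 ± 4.74 CPM in A2780 and 90.9 ± 6.9 and 72 ± 4.1 in A2780cis.

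Genes around the network were described from lists of its known partners, regulators and targets. The remaining E2F and DP genes with tested counts were E2F5, E2F6 and TFDP2, and TFDP3 was at or near 0. At 12 h 1 of the 3 fell in A2780 and all 3 fell in A2780cis, beside 26.1% and 28.9% of all tested genes called lower, with medians of -0.09 and -0.46. E2F5, a relative of E2F4, fell by 0.59 ± 0.10 in A2780 (adjusted p = 1.47e-05) and fell by 0.46 ± 0.10 in A2780cis (adjusted p = 0.000198). E2F6, a repressor that acts without pocket proteins, had 33.3 ± 1.72 CPM in untreated and 21.8 ± 1.31 in treated A2780cis cells of 12 h. TFDP2, the other DP partner, fell by 0.35 ± 0.08 in that line (adjusted p = 0.000588).

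Of the cyclins, cyclin-dependent kinases and their inhibitors, which set the phosphorylation of the pocket proteins, 20 of 21 were tested. At 12 h 9 rose and 7 fell in A2780, 80% called beside 54.8% of all tested genes, and 7 rose and 6 fell in A2780cis, 65% beside 59.9%, with medians of 0.12 and -0.05. CDKN1A, the inhibitor that p53 switches on, had 44.6 ± 1.37 CPM in untreated and 330.3 ± 7.98 in treated A2780 cells and 12.9 ± 0.823 and 225 ± 12.1 CPM in those of A2780cis, a log2 FC of 2.89 ± 0.11 and 4.12 ± 0.12 (adjusted p = 5.34e-17 and 6.9e-19). The S phase kinase and its cyclin rose as well: CDK2 by 1.00 ± 0.07 and 0.75 ± 0.07 and CCNE2, a direct E2F target, by 1.94 ± 0.11 and 0.75 ± 0.11 (adjusted p at most 1.55e-06). CCNA2, the cyclin of S and G2 phase, fell in each line (log2 FC -0.68 ± 0.10 and -1.32 ± 0.10), and so did CCND2, a cyclin of G1 phase (-0.89 ± 0.08 and -0.93 ± 0.08, adjusted p at most 1.48e-06).

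The list of E2F targets of the G1/S transition, replication and repair genes for the most part, split rather than moving one way. All 66 were tested. At 6 h 22 rose and 9 fell in A2780 and 7 rose and 22 fell in A2780cis, 47% and 43.9% called beside 29.4% and 30.7% of all tested genes, with medians of 0.13 and -0.10 beside 0.04 and 0.00. At 12 h 20 rose and 22 fell in A2780, 63.6% called beside 54.8% of all tested genes, and 11 rose and 40 fell in A2780cis, 77.3% beside 59.9%. The medians were -0.05 and -0.41 beside 0.02 and 0.04. Among the named ones, GINS4, a part of the replicative helicase, rose by 1.43 ± 0.08 in A2780 and 1.01 ± 0.08 in A2780cis, ASF1B, a histone chaperone, by 1.47 ± 0.11 and 1.18 ± 0.11, and PCNA, the sliding clamp, by 1.34 ± 0.10 and 0.85 ± 0.10 (adjusted p at most 6.11e-08). WDHD1, a replication fork protein, fell in each line (log2 FC -0.47 ± 0.10 and -1.45 ± 0.11), and so did ATAD2, a chromatin protein (-0.80 ± 0.11 and -1.51 ± 0.11, adjusted p at most 0.000406). The difference between the lines passed the threshold at 12 h for 26 of the 66, 23 of them lower in A2780cis, beside 23.7% of all tested genes. The E2F letters shown above stood in the promoters of 30 of the 56 genes of this list with an entry, 53.6%.

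The G2/M genes that the DREAM complex represses in resting cells fell together. Of 40, 37 fell at 6 h in each line, beside 13.4% of all tested genes called lower in A2780 and 16.3% in A2780cis. At 12 h 34 fell in A2780 and 39 in A2780cis, beside 26.1% and 28.9%, and none was called higher at either time. Their medians at 12 h were -0.98 in A2780 and -1.61 in A2780cis on the log2 scale. PLK1, a mitotic kinase, had 90.3 ± 16 CPM untreated and 15.3 ± 1.35 treated in A2780, and 109.7 ± 15.6 and 11.1 ± 0.705 CPM in A2780cis. In A2780 and A2780cis the log2 FC of CDC20, which opens anaphase, was -1.86 ± 0.11 and -2.93 ± 0.11, that of BUB1B, a checkpoint kinase, -1.51 ± 0.10 and -2.54 ± 0.10, that of TPX2, a spindle factor, -1.36 ± 0.09 and -2.11 ± 0.09 and that of KIF20A, a kinesin, -1.28 ± 0.08 and -1.75 ± 0.08 (adjusted p at most 1.91e-12). By the test of the difference, 33 of the 40 (82.5%) fell further in A2780cis than in A2780 at 12 h. Of all tested genes 14% were called with the lower value in A2780cis there. At 6 h 1 of the 40 differed (2.5%), beside 3.07% of all tested genes. The E2F letters stood in the promoters of 3 of the 34 genes with an entry (8.82%), beside 3.99% of all genes of the table. The CHR letters TTTGAA and TTCGAA, which MuvB binds, stood in 27 of the 34 on either strand, beside 19.5% of all genes of the table.

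The MuvB and MYB genes, whose products join the DREAM complex or replace the pocket proteins in it, were 8 in number. At 12 h 3 rose and none fell in A2780, 37.5% called beside 54.8% of all tested genes, and 2 rose and 5 fell in A2780cis, 87.5% beside 59.9%. MYBL1, a MYB factor, had 5.15 ± 0.484 CPM untreated and 23.5 ± 2.49 treated in A2780, and 4.06 ± 0.427 and 13.2 ± 1.67 CPM in A2780cis, a log2 FC of 2.19 ± 0.13 and 1.69 ± 0.14 (adjusted p = 6.81e-13 and 1.15e-10). LIN37, a core subunit, rose by 0.93 ± 0.15 and 0.75 ± 0.14 (adjusted p at most 5.12e-05). LIN54, the subunit that binds DNA, rose by 0.31 ± 0.12 in A2780 (adjusted p = 0.0252) and fell by 0.69 ± 0.12 in A2780cis (adjusted p = 2.08e-05). FOXM1, which drives G2/M genes together with MuvB, was at 0.24 ± 0.11 in A2780 (adjusted p = 0.0568) and fell by 0.93 ± 0.11 in A2780cis (adjusted p = 6.38e-08).

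Of 12 apoptosis genes linked to E2F1, 6 rose and 1 fell at 12 h in A2780 and 4 rose and 2 fell in A2780cis, 58.3% and 50% called beside 54.8% and 59.9% of all tested genes, with medians of 0.26 and -0.03. PMAIP1 and BBC3, which neutralise protective BCL2 proteins and are p53 targets too, rose by 2.90 ± 0.20 and 1.84 ± 0.23 in A2780 and by 2.98 ± 0.15 and 2.26 ± 0.24 in A2780cis (adjusted p at most 2.09e-07). APAF1, the scaffold of the apoptosome, had 25.5 ± 1.42 CPM untreated and 67.5 ± 4.25 treated in A2780, and 15 ± 0.474 and 28.4 ± 4.86 CPM in A2780cis (adjusted p = 3.26e-10 and 4.87e-07). MAP3K5, a stress kinase, was at 1.82 ± 0.533 CPM in untreated and 1.78 ± 0.0665 in treated A2780 cells of 12 h, and fell from 11.9 ± 0.821 to 3.37 ± 0.17 in A2780cis (adjusted p = 4.54e-10).

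**Figure D5:**
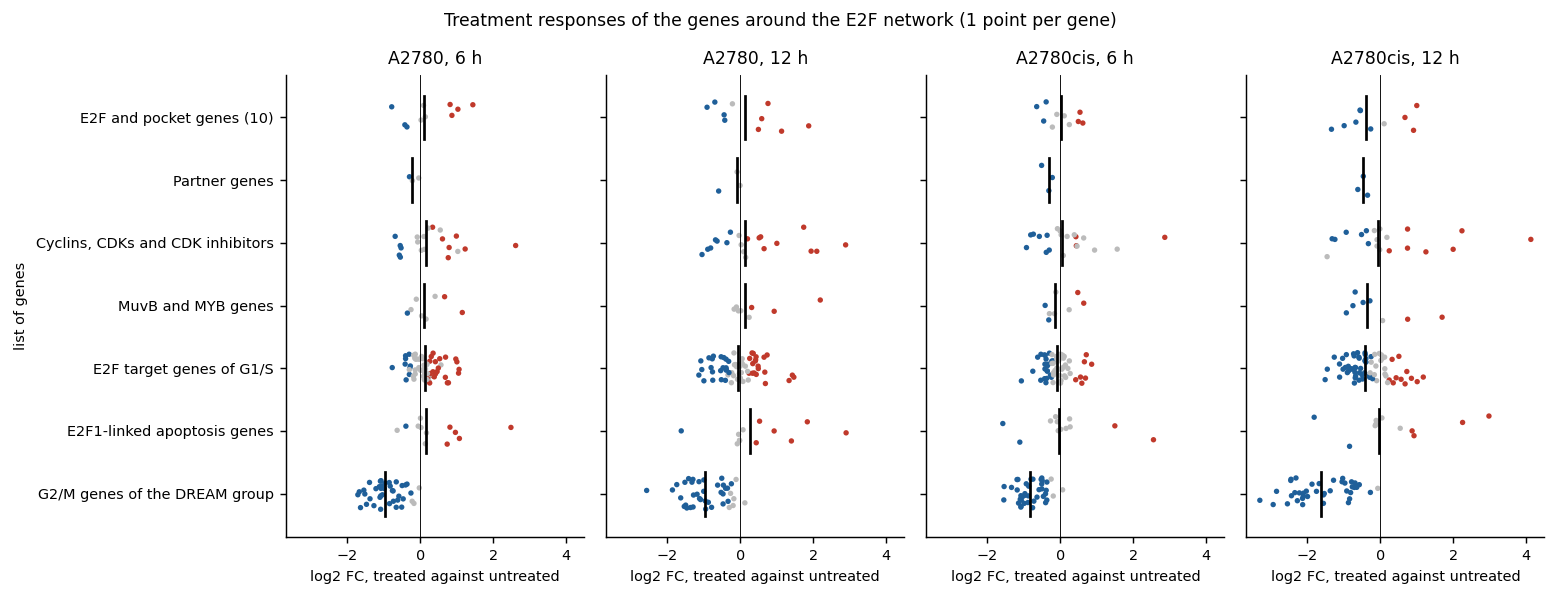
Log2 fold change of treated against untreated cells (horizontal axes, the same in all panels) for the 10 genes and 6 lists of related genes (vertical axis), 1 point per tested gene, by line and time; red and blue points rose or fell with an adjusted p of at most 0.05, grey points did not pass, and black bars are medians. Nearly all G2/M genes lie left of 0 in every panel, with the lowest median, -1.61, in A2780cis at 12 h, while the G1/S targets spread to each side.

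Genes with the most similar pattern over the 8 group means were sought among 10760 tested protein-coding genes (mean log2 CPM 2 or more), by the root mean square difference of the centred log2 values. The group means of all genes share the same libraries. E2F7 was followed most closely by DRAM1, at a difference of 0.20, MYBL1, at 0.22, and PRKAB2, at 0.24. For E2F1 they were APBB3, RUSC1 and RHBDD3, at 0.13 to 0.14, and for E2F2 SHROOM1, HOMER3 and SPATA33, at 0.10 to 0.15. E2F8 had CSRP2, ZNF101 and ELMOD3, at 0.15 to 0.16. E2F3 had MIA2, ICE2 and PAFAH1B2, at 0.05 to 0.06, and E2F4 had CCDC12, KIAA2013 and PRPF8, at 0.07 to 0.09. Among the pocket genes, RB1 had ABCD3, ZNF106 and NEK9, at 0.18 to 0.21, RBL1 had HEATR5B, NOC3L and WRN, at 0.09 to 0.10, and RBL2 had ENSG00000258472, RNMT and UMAD1, at 0.07 to 0.08. TFDP1 was followed by YLPM1, FARP1 and TUBGCP3, at 0.10 to 0.12. A gene that moves little, such as E2F3, finds close neighbours more easily than one that moves much, such as E2F7. Within the set itself the most similar pairs were E2F3 and RBL2 at 0.16 and E2F3 and E2F4 at 0.23, before E2F1 and E2F2 at 0.32 and E2F7 and E2F8 at 0.32.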

How the data were processed

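Total RNA of 24 samples was sequenced. The authors deposited expected counts per gene: reads were aligned with STAR 2.5.2b to GRCh38 and counted on exons with featureCounts, with fractions for reads of several alignments and with overlaps of several genes allowed. The strand setting was not given in the sources used here, and the labels and the methods differ on single or paired reads. The counts were not normalised.

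Counts were rounded, and 20240 of 63299 genes passed filterByExpr (minimum count 10, minimum total 15). They were scaled by TMM and fitted with edgeR 4.0.16 in R 4.3.3, with 1 coefficient for each group, which left 16 residual degrees of freedom. Adjusted p-values are two-sided, come from the quasi-likelihood test of edgeR, were adjusted over all tested genes by the method of Benjamini and Hochberg and were read at a threshold of 0.05. An SE is the size of the log2 FC over the root of its F value. The procedure was tested on simulated data. Positions and exon lengths are from GENCODE release 44, and promoters from RefSeq.

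All 10 genes were named, and in each list the 3 tested genes with the smallest p at 12 h in each line. The members, the lists and this rule were chosen with earlier results of these data known. Alternatives were the size factors of DESeq2 1.42.0, library size alone, no filter, unrounded counts, a block for the replicate number, a fit of only the groups compared, the Wald test of DESeq2 and each library left out. Figures were drawn with Python 3.11.15 and matplotlib 3.10.9. The reads had no molecular identifiers, so intervals cover no more than counting and replicate error.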

Additional observations from a re-analysis of the deposited data

Results flagged for a closer look

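The treatment response differed between groups, by the test of the difference itself, for 16 values of the 10 genes. Between the lines (A2780cis minus A2780, log2 FC) these were E2F2 at -0.78, E2F7 at -0.82 and TFDP1 at -0.55 at 6 h, and E2F1 at 0.41, E2F2 at -0.65, E2F7 at -0.88, E2F8 at -0.46, RB1 at -1.14, RBL1 at -0.64 and TFDP1 at -0.55 at 12 h. Between the times (12 h minus 6 h) they were E2F4 at -0.93, E2F7 at 0.43 and TFDP1 at -0.53 in A2780 and E2F4 at -0.78, RBL1 at -0.69 and TFDP1 at -0.54 in A2780cis. Of all tested genes, 3.07% differed between the lines at 6 h and 23.7% at 12 h. Between the times 3 of the 10 passed in each line, near the 23.7% of all tested genes in A2780 and 24% in A2780cis. The E2F1 call at 12 h and the E2F7 call between the times in A2780 were lost in most fits without 1 library.

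Of the 26 named genes of the lists, 18 differed between the lines at 12 h (69.2%, beside 23.7% of all tested genes), but they had been picked for a small p at 12 h within a line. CDKN1A was the one with the larger value in A2780cis, at 1.24. The cyclins CCNE2 at -1.19 and CCNA2 at -0.64, the partner genes E2F6 at -0.53 and TFDP2 at -0.34, LIN54 at -1.0 and FOXM1 at -1.17 had the lower value there. So did the G1/S targets GINS4 at -0.42, PCNA at -0.49, WDHD1 at -0.98 and ATAD2 at -0.71 and the apoptosis genes APAF1 at -0.48 and MAP3K5 at -1.77. The G2/M genes were CDC20 at -1.08, PLK1 at -0.74, KIF20A at -0.47, BUB1B at -1.03 and TPX2 at -0.74. Groups of 3 libraries were too small for a search for single outlying libraries.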

How the results depend on the processing

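Of 120 values of the 10 genes, the direction and the side of the threshold stayed for 120 with counts not rounded, 117 with the replicate block, 114 each with the size factors of DESeq2, the DESeq2 Wald test and no filter, 110 with the compared samples alone and 100 with library size alone. Of 960 fits without 1 library, 897 stayed, 33 lost and 11 gained a call, and 19 changed sign. No value that changed sign was called. With library size alone the median over all genes at 12 h was 0.24 in place of 0.02 for A2780 and 0.15 in place of 0.04 for A2780cis, and 70.7% in place of 52.3% and 58.8% in place of 51.7% of the calls were higher. At 6 h 63.7% in place of 54.5% were higher for A2780 (47.8% with the size factors of DESeq2) and 61.4% in place of 47% for A2780cis. With it, the response of 6 in place of 3 of the 10 genes differed between the times in A2780, and of the partner genes 2 in place of 1 were called in A2780 at 12 h and 1 in place of 3 in A2780cis at 6 h; the cause was not tested. Without 1 library, the untreated A2780 cells changed with time in 0 to 4 of the 10 genes.

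Values of changed sign were as follows. E2F4 in A2780 at 6 h was at -0.0126 with the size factors of DESeq2 and -0.0104 with its Wald test. The line difference at 6 h was 0.00773 for E2F3 with library size alone and 0.0362 with the compared samples alone, and that at 12 h was 0.00797 for RBL2 with the compared samples alone. Library size alone gave 0.00904 for RBL2 in A2780 at 12 h, 0.00298 for RBL2 in A2780cis at 6 h, 0.0971 for the growth of E2F3 in A2780, 0.0469 for RB1 in untreated A2780 with time and 0.0116 for RBL2 in untreated A2780cis with time. With no filter RB1 in untreated A2780 with time was at 0.00832, and with the size factors of DESeq2 RBL2 there was at -0.00398. Without 1 library, the ranges were -0.12 to 0.11 for E2F4 in A2780 at 6 h, -0.0823 to 0.0758 for E2F3 and -0.00404 to 0.23 for E2F4 in the line difference at 6 h, -0.12 to 0.0273 for RBL2 in that at 12 h, -0.00537 to 0.19 for the growth of RBL1 in A2780, -0.20 to 0.0377 and -0.0649 to 0.0237 for E2F4 between untreated lines at 6 h and 12 h, -0.0941 to 0.0394 for RB1 and -0.0239 to 0.0714 for RBL2 in untreated A2780 with time and -0.0270 to 0.15 for E2F8 in untreated A2780cis with time.

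For 84 pairs of libraries with the same replicate number, the correlation of their deviations ran from -0.655 to 0.661. Its median was 0.034, and 35 pairs were over 0.1. For 168 pairs of other numbers it ran from -0.68 to 0.679, with a median of -0.008 and 59 over 0.1. These ranges overlap and do not settle whether libraries of the same number deviated together. More genes were called with the number as a block in every comparison. With the number as a block, 11315 in place of 11087 genes were called in A2780 and 12298 in place of 12127 in A2780cis at 12 h, no call of the 10 genes was lost, and 3 were gained: RBL2 in A2780 at 12 h (-0.21, adjusted p = 0.0461), E2F2 in A2780cis at 6 h (0.25, adjusted p = 0.0461) and the growth of E2F1 in A2780cis (0.38, adjusted p = 0.0433).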
